A study of Homo sapiens with 24 samples.

Results

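Cell cycle and proliferation genes were followed in 2 hepatocellular carcinoma (HCC) cell lines, PLC/PRF/5 and SNU-449, on 24 one-colour Agilent expression arrays. The set was a list of 50 genes, and its members were found as the array probes whose accession belongs to a listed gene. Of these 50, 49 had a probe, among 31204 named genes on the array, and 48 were tested. The mitotic kinase PLK1 had no matched probe and was not analysed here, and CCND2, a D-type cyclin, was too dim for a test on all 24 arrays. Each line was cultured as an untreated control, with TGFb1 (1 ng/mL), with galunisertib (10 µM), a small-molecule inhibitor of the kinase of the type I TGFb receptor, or with both agents. Treatment lasted 16 h and followed a night without serum, and whether the controls were starved in the same way is not stated separately. Each of the 8 groups had 3 independent cultures. The replicate number was also the slide: each of 3 slides carried 8 arrays, 1 per group, and every group occupied the same place on each slide, so group and place cannot be told apart. The level of a gene is given as the log2 intensity of its probe over the 75th percentile of the array, a scale on which 1 unit is a 2-fold difference and -4.13 is the lowest value used. Levels of different genes come from different probes and were not compared with each other.

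A dividing cell passes from G1 through DNA synthesis (S) and G2 to mitosis (M). D-type cyclins with CDK4 or CDK6, and then E-type cyclins with CDK2, free the E2F transcription factors, which switch on genes for origin licensing (CDC6, CDT1 and the MCM helicase), for the replication fork and for the supply of deoxynucleotides. Later, cyclins A and B with CDK1, together with FOXM1 and MYBL2, drive the genes of the spindle, the kinetochore and the spindle checkpoint. TGFb is known for holding epithelial cells, hepatocytes among them, in G1, and many advanced tumours lose this response. The members were therefore ordered by role: G1 cyclins and kinases, transcription factors, licensing and replication, nucleotide synthesis, cyclins, kinases and phosphatases of S, G2 and M, and genes of the spindle and chromosome segregation.

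The 75th percentile of the arrays ran from 145 to 262 intensity units (median 227), and 41.6 to 49.6% of probes were well above background on an array. Targets of TGFb signalling checked the treatment labels. In PLC/PRF/5, SKIL and SMAD7, both induced feedback inhibitors, were 1.63 ± 0.11 and 0.80 ± 0.11 log2 units (± SE, n = 3 against 3) higher with TGFb, and in SNU-449 SMAD7 was 0.65 ± 0.13 higher. Adding galunisertib to TGFb lowered all 3 such targets tested in PLC/PRF/5 (-2.06 to -1.54) and all 4 in SNU-449 (-3.19 to -1.16). Galunisertib alone lowered all 4 in SNU-449 (-3.50 to -1.90). In PLC/PRF/5 it lowered only 2 of 3, and the changes were smaller (-0.63 to 0.21). The line labels were checked too: all 6 hepatocyte markers looked at, among them ALB and APOB, were well above background in the PLC/PRF/5 controls, whereas ALB, APOB and EPCAM were not on any SNU-449 control array. All 6 hepatocyte markers were lower in untreated SNU-449, although 4 of them reached the detection needed for a test within that line. Of 4 mesenchymal markers, VIM, SPARC and ZEB1 were higher in untreated SNU-449, by 1.47, 7.95 and 1.47 log2 units, whereas FN1, a fibronectin gene that hepatocytes also express, lay the other way, at -6.25. Of the leukocyte, endothelial and red cell markers, PTPRC and VWF did not exceed -2.31 on any array, and CD3E, PECAM1 and HBB did not reach the detection needed for a test.

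In untreated cells, nearly the whole set stood higher in SNU-449. Of 48 members, SNU-449 had 43 at a higher level and 0 at a lower level (limma, Benjamini-Hochberg adjusted p below 0.05), whereas over all 17902 genes tested 68.5% were called, 34.6% higher and 33.9% lower. The member median was 1.01 log2 units, against -0.06 over all genes. By the limits that the study used for its arrays, a fold above 2 with an unadjusted P below 0.001, 25 members were higher, against 17.5% of all genes. The arrays read RNA pooled from whole cultures, so more cycling cells and more RNA per cycling cell cannot be told apart.

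RRM2, the regulated subunit of ribonucleotide reductase, showed the largest difference of any member. Its log2 level was -0.09, -0.20 and 0.25 on the 3 PLC/PRF/5 control arrays and 2.61, 2.57 and 2.71 on those of SNU-449. The lines did not overlap, and the difference was 2.64 ± 0.23 (SE; limma, adjusted p = 2.9e-09), a 6.25-fold higher intensity. All 4 members that make nucleotides were higher in SNU-449, with TK1, the thymidine salvage kinase, at 2.13, TYMS, which makes thymidylate, at 1.02 and RRM1, the other reductase subunit, at 0.76.

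Among G1 cyclins and kinases, 6 of 7 tested were higher in SNU-449. CCNE2, the cyclin E2 that activates CDK2, had levels of -0.60, -0.38 and -0.29 in PLC/PRF/5 and of 2.00, 2.39 and 2.07 in SNU-449. The difference of 2.57 ± 0.10 (limma, adjusted p = 4.4e-15) was the largest of this group, followed by CDK2 at 1.43, CDK6 at 1.06, CCNE1 at 0.95, CCND3 at 0.37 and CDK4 at 0.30. CCND1, cyclin D1, was the exception. Its levels of 2.55, 2.49 and 2.57 in PLC/PRF/5 and of 2.60, 2.31 and 2.56 in SNU-449 overlapped, with a difference of -0.05 ± 0.08 (limma, adjusted p = 0.57).

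All 5 transcription factors and all 10 licensing and replication genes were higher in SNU-449. E2F2, an activating E2F, read 2.54, 2.46 and 1.86 in PLC/PRF/5 and 4.12, 3.98 and 4.09 in SNU-449, a difference of 1.78 ± 0.15 (limma, adjusted p = 2.3e-09) with no overlap. E2F8, an atypical repressive E2F, differed by 1.55, FOXM1 by 1.01, MYBL2 by 0.74 and E2F1 by 0.73. PCNA, the sliding clamp of the replication fork, read 4.24, 4.14 and 4.30 in PLC/PRF/5 against 5.83, 6.01 and 6.11 in SNU-449, and the difference of 1.76 ± 0.11 (limma, adjusted p = 1.3e-11) led the replication genes. The subunits of the MCM helicase differed unequally, from 1.71 for MCM4 and 1.58 for MCM2 through 1.01 for MCM7, 0.86 for MCM6 and 0.76 for MCM5 to 0.27 for MCM3.

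Of the S, G2 and M cyclins, kinases and phosphatases, 7 of 9 were higher in SNU-449. CDK1, the mitotic cyclin-dependent kinase, read 3.09, 3.09 and 3.21 in PLC/PRF/5 and 4.35, 4.46 and 4.54 in SNU-449, a difference of 1.32 ± 0.08 (limma, adjusted p = 3.0e-11) with no overlap. AURKB, a kinase of the chromosomal passenger complex, differed by 1.02, and the CDK-activating phosphatases CDC25B, CDC25C and CDC25A by 0.99, 0.82 and 0.27. The mitotic kinase AURKA did not pass, at -0.28 (adjusted p = 0.34). CCNB1, cyclin B1, did not pass with the probe used, at -0.01 (adjusted p = 0.90), but its other probe was 1.40 higher in SNU-449 and called.

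Among the 13 genes of the spindle and chromosome segregation, a group that here also holds the markers MKI67 and TOP2A, 11 were higher in SNU-449. CENPF, a kinetochore protein, read 4.64, 4.61 and 4.79 in PLC/PRF/5 and 6.59, 6.68 and 6.63 in SNU-449, a difference of 1.95 ± 0.15 (limma, adjusted p = 9.4e-10). TOP2A, the topoisomerase that untangles chromosomes, read 2.12, 2.26 and 2.18 in PLC/PRF/5 and 3.65, 4.05 and 4.0 in SNU-449, and MKI67, which encodes the Ki-67 antigen, read 1.55, 1.31 and 1.35 against 3.21, 2.85 and 2.96. Neither gene overlapped between the lines, and their differences were 1.71 ± 0.14 and 1.60 ± 0.20 (limma, adjusted p = 1.4e-09 and 6.5e-07). Of the other MKI67 probes, 1 gave 1.36 and was called, and 1 gave 0.43 and was not. The checkpoint kinases BUB1 and TTK did not pass, at -0.09 and -0.36 (adjusted p = 0.42 and 0.061), whereas their partners BUB1B and MAD2L1 were higher by 1.05 and 1.45. Across roles the median difference was 1.57 for nucleotide synthesis, 1.09 for licensing and replication, 1.09 for the spindle group, 1.01 for transcription factors, 0.95 for the G1 group and 0.78 for the S, G2 and M group.

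**Figure D1:**
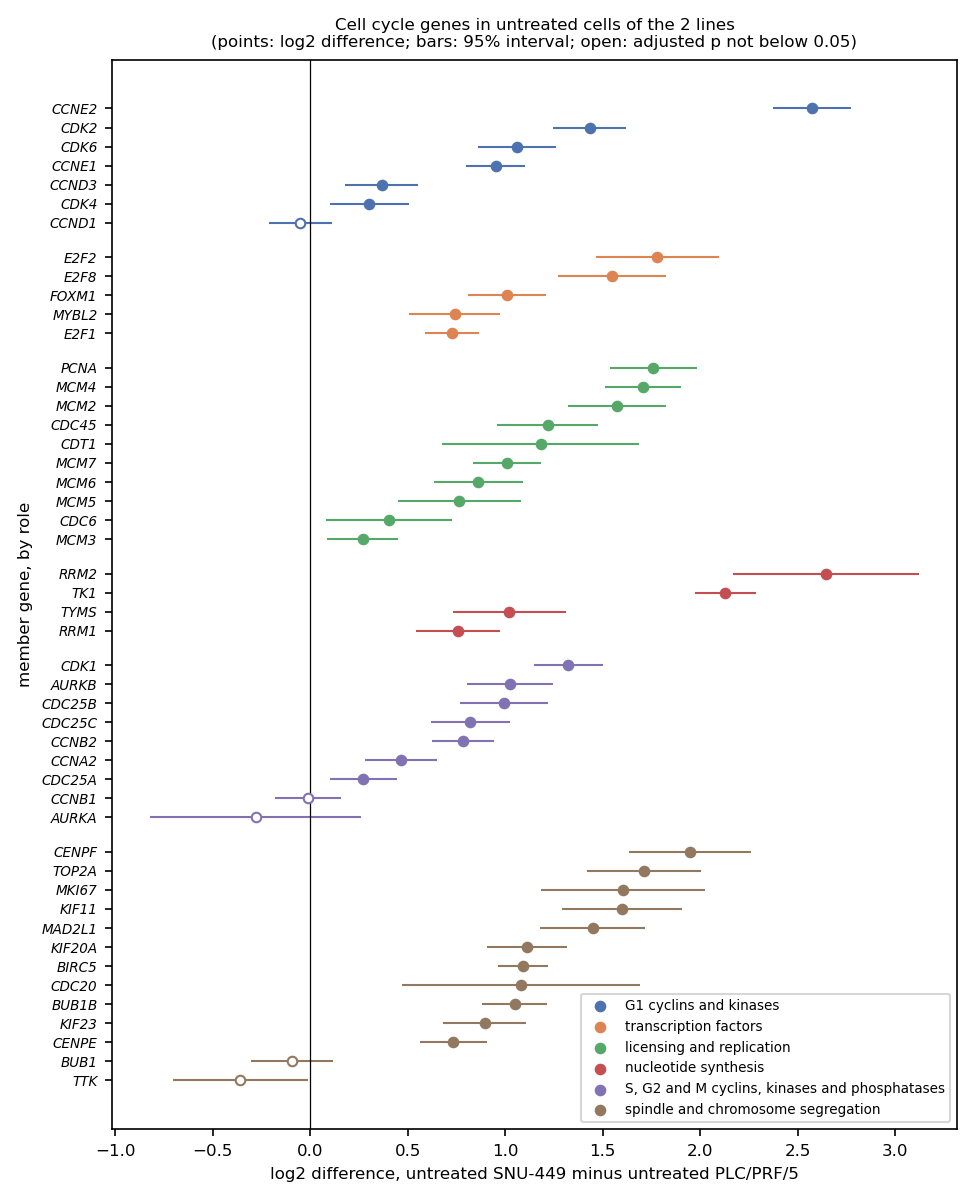
Log2 difference between untreated SNU-449 and untreated PLC/PRF/5 (x axis, SNU-449 minus PLC/PRF/5) for the 48 members tested, coloured by role, with 95% intervals as bars and n = 3 arrays per group. The 43 filled points are all to the right of 0, with RRM2 at 2.64 and CCNE2 at 2.57 farthest out, and the 5 open points (CCND1, CCNB1, AURKA, BUB1 and TTK) did not pass the adjusted p.

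The difference between the lines was also seen in the treated cultures. For 37 of 48 members every one of the 12 SNU-449 arrays lay above every one of the 12 PLC/PRF/5 arrays, against 22.0% of all genes. For 0 members did every one lie below, and the share of all genes lying wholly below is not reported here. These 37 included all 5 transcription factors, all 4 nucleotide synthesis genes, 8 of 10 replication genes, 10 of 13 spindle genes, 6 of 9 of the S, G2 and M group and 4 of 7 of the G1 group. The other 11 were CCND1, CCND3, CDK4, CDC6, MCM3, CDC25A, CCNB1, AURKA, CDC20, BUB1 and TTK. Over all scalings tried, 39 to 43 members were higher in the untreated cells. Of all genes, 41.2% were higher with the array median, 34.9% after quantile normalization, 32.1% with no scaling and 30.7% with the percentile over bright probes. Lower members were 0 except after quantile normalization (3, where 32.9% of all genes were lower) and with the percentile over bright probes only (4, where 39.4% were lower). With bright probes the median of all genes moved from -0.06 to -0.20.

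**Figure D2:**
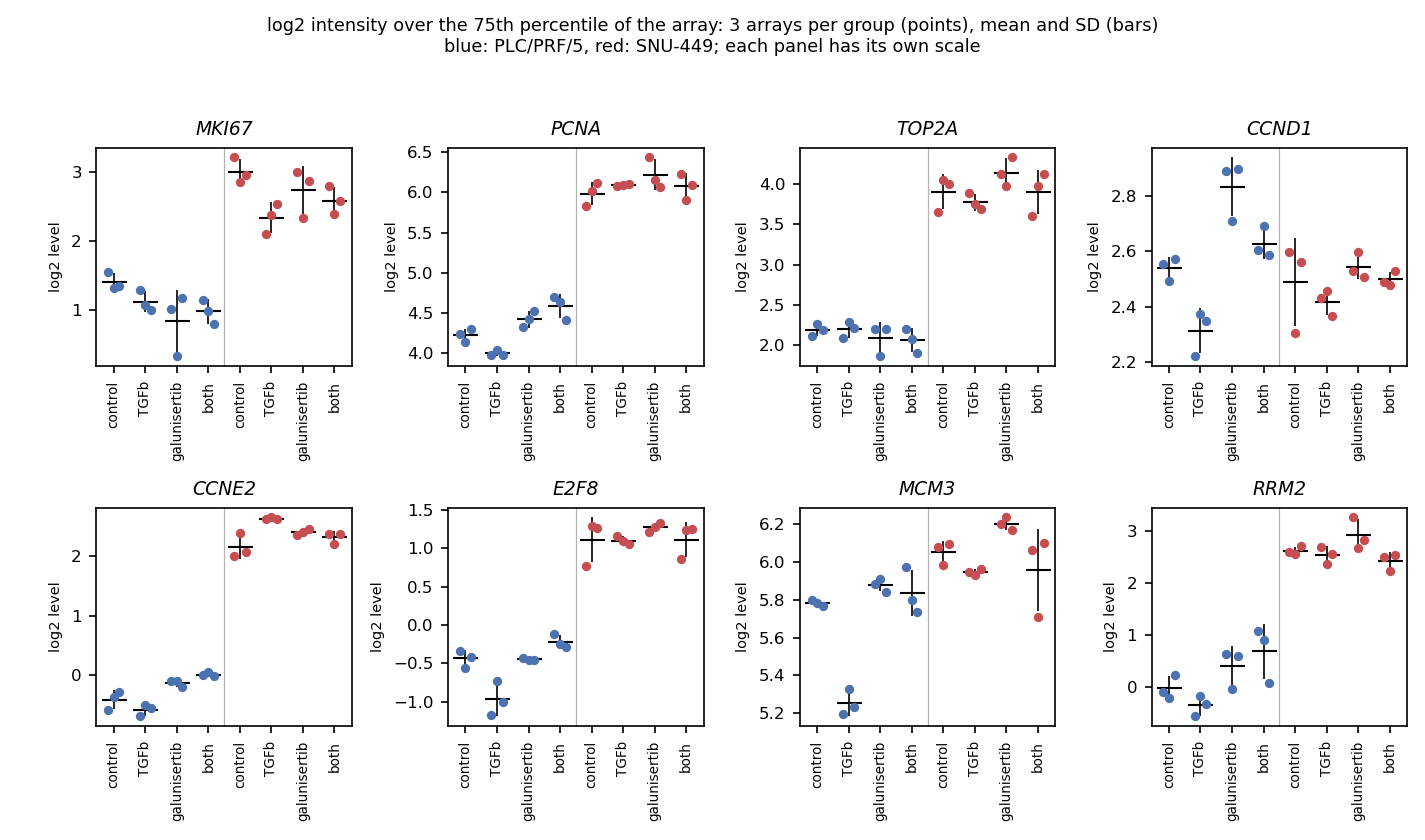
Log2 level (intensity over the 75th percentile of the array) of 8 members in the 4 groups of PLC/PRF/5 (blue) and of SNU-449 (red), with 1 point per array and the mean and SD of 3 arrays as bars; each panel has its own scale. SNU-449 lies above PLC/PRF/5 in every group for MKI67, PCNA, TOP2A, CCNE2, E2F8 and RRM2, the lines overlap for CCND1, and in PLC/PRF/5 the TGFb arrays of MCM3 (5.20 to 5.33) lie below those of all other groups.

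Treatment of PLC/PRF/5 with TGFb lowered a small set of genes, most of them for replication licensing. Of 48 members, 8 fell and 0 rose (limma, adjusted p below 0.05), against 13.5% called over all 16684 genes tested in this line, 6.27% higher and 7.24% lower. Licensing and replication accounted for 5 of the 8, the helicase subunits MCM3, MCM2, MCM7 and MCM6 and the licensing factor CDT1, together with CDK4, E2F8 and CDC25A. No nucleotide gene of 4 and no spindle gene of 13 passed. The member median was -0.17 log2 units, against -0.04 over all genes. A negative difference was seen in 36 of 48 members, against 9381 of 16684 genes. An unadjusted p below 0.05 was reached by 20 members, against 4597 of 16684 genes.

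MCM3 moved most clearly. It read 5.80, 5.79 and 5.77 on the control arrays and 5.20, 5.33 and 5.23 on the TGFb arrays, with no overlap, and fell by 0.53 ± 0.08 (SE; limma, adjusted p = 0.0014). E2F8 read -0.34, -0.56 and -0.42 in controls and -1.18, -0.73 and -1.0 with TGFb, a fall of 0.54 ± 0.11 (limma, adjusted p = 0.0094) without overlap. CDC25A, a phosphatase that activates CDKs at entry into S phase, read 1.17, 1.15 and 1.27 in controls and 0.59, 0.83 and 0.82 with TGFb. This difference was -0.45 ± 0.09 (limma, adjusted p = 0.0083), also without overlap. CDK4, the partner of cyclin D, read 4.74, 4.68 and 4.75 and then 4.48, 4.42 and 4.41, and fell by 0.29 ± 0.07 (limma, adjusted p = 0.030).

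The remaining calls were MCM2 at -0.45, MCM7 at -0.40, MCM6 at -0.39 and CDT1 at -0.39. A second MCM7 probe, at -0.50, was not called. The other replication genes CDC6, CDC45, MCM4, PCNA and MCM5 were between -0.48 and -0.23 and did not pass, although a second PCNA probe, at -0.43, did. PCNA read 3.97, 4.04 and 3.98 with TGFb, below each of its control arrays, and CCND1 read 2.22, 2.37 and 2.35, also below its controls, with differences of -0.23 and -0.23 (limma, adjusted p = 0.13 and 0.081). TOP2A at 2.09, 2.29 and 2.21 overlapped its controls. For MKI67, a different probe was the brightest in this line and was used for its treatment tests, with control levels of 1.77, 1.78 and 1.57 and TGFb levels of 1.60, 1.62 and 1.42. Its groups overlapped, at -0.16 (adjusted p = 0.51).

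By role, the median difference with TGFb in PLC/PRF/5 was -0.39 for licensing and replication and -0.23 for nucleotide synthesis, against 0.00 for the spindle group, whose members lay between -0.17 and 0.16. A difference between 2 groups of genes on the same arrays does not depend on the factor by which each array is scaled. Within slides 1, 2 and 3 the median of the 14 replication and nucleotide genes was 0.37, 0.26 and 0.33 log2 units below that of the 13 spindle genes. The number of calls did depend on scaling: 0 members passed with the array median, 0 with no scaling, when the median of all genes moved from -0.04 to 0.21, and 1 rose while 11 fell after quantile normalization. The median of the licensing and replication genes was below 0 under every scaling, the unscaled value of -0.14 being nearest to 0. Without control array 2, TGFb array 1 or TGFb array 3 the count was 4.

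**Figure D3:**
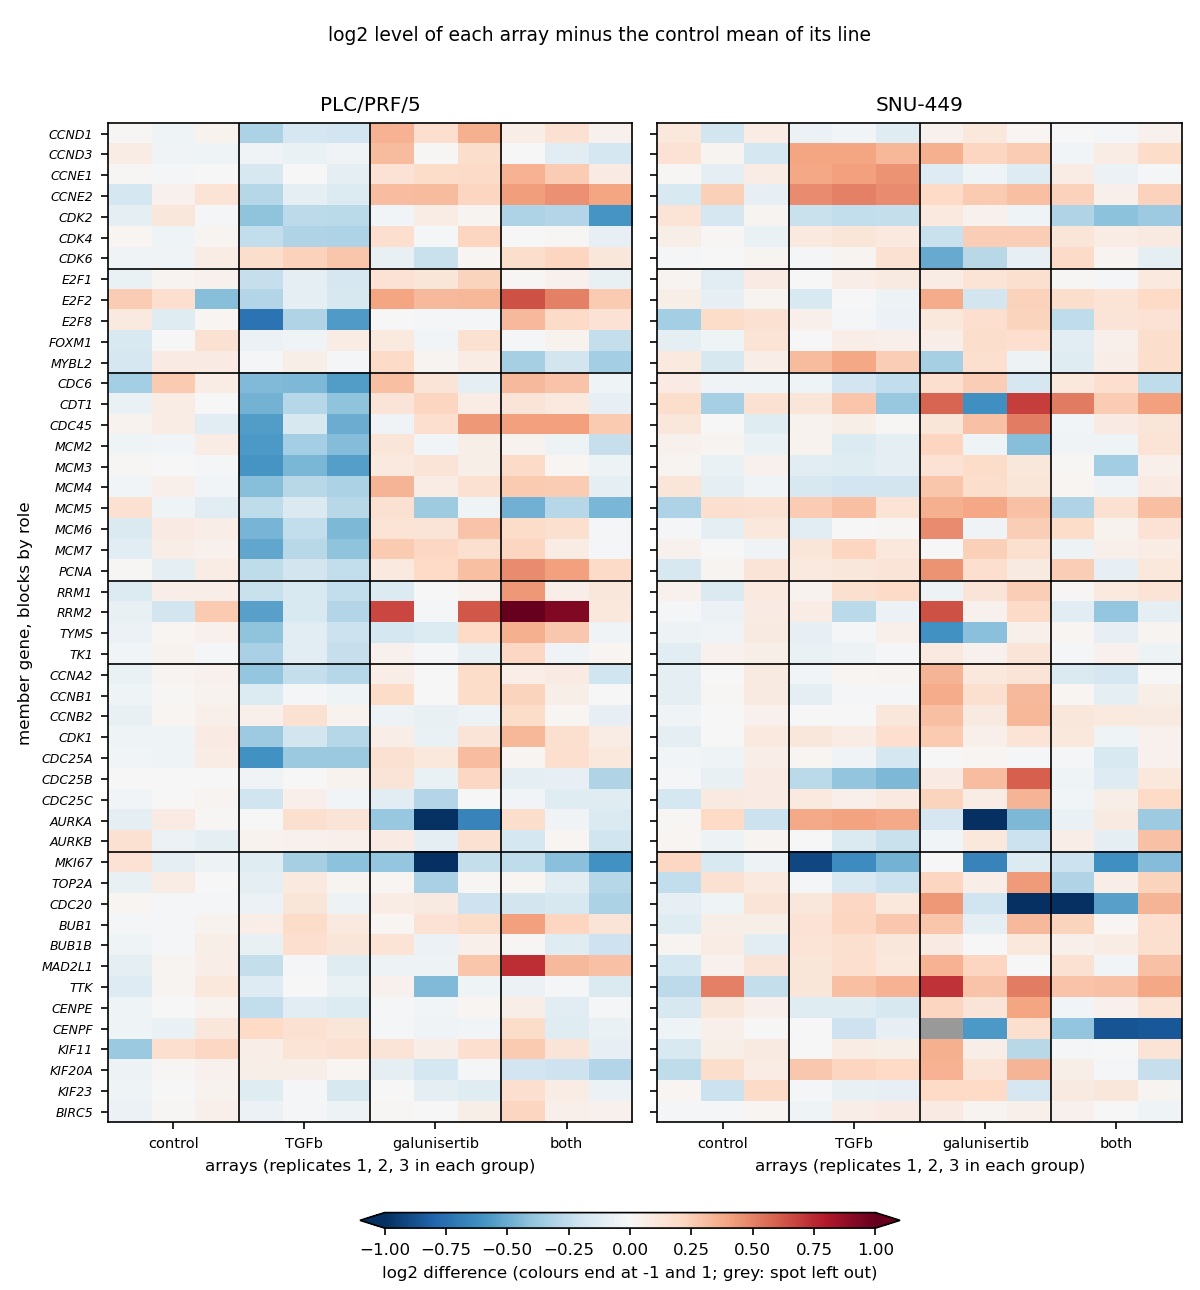
Log2 level of each array minus the control mean of its line, for the 48 members (rows, in blocks by role) and 12 arrays of each line (columns, 3 per group), blue for lower and red for higher, with colours ending at -1 and 1 and the 1 spot left out in grey; MKI67 is drawn with its probe of the basal comparison. In PLC/PRF/5 the block from CDC6 to PCNA is blue on the TGFb arrays, and CCND3, CCNE1 and CCNE2 are red on those of SNU-449.

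Adding galunisertib to TGFb raised replication and nucleotide genes in PLC/PRF/5. Compared with TGFb alone, 23 of 48 members were higher with both agents and 2 were lower (limma, adjusted p below 0.05), where 39.1% of all genes were called, 25.8% higher and 13.3% lower. Among licensing and replication genes 9 of 10 rose, all but MCM5, as did all 4 nucleotide genes and 4 of 7 in the G1 group. Of the 13 spindle genes 1 rose and 1 fell. The members' median was 0.16, against 0.06 over all genes. This comparison shares the 3 TGFb arrays with the TGFb comparison above, so opposite signs in the pair are not independent.

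RRM2 rose most, from -0.56, -0.17 and -0.31 with TGFb to 1.08, 0.91 and 0.09 with both agents. The groups did not overlap, although array 3 of the combination lay close to the TGFb arrays. The difference of 1.04 ± 0.26 (limma, adjusted p = 0.010) was the only called treatment difference above 2-fold among the probes that stood for the members. A second CENPF probe, at -1.37 for both agents against TGFb in SNU-449, was also called. CDC45, which joins the helicase at the fork, read 2.66, 3.06 and 2.73 with TGFb and 3.63, 3.63 and 3.49 with both, a rise of 0.77 ± 0.13 (limma, adjusted p = 0.0013). E2F8 read -0.11, -0.25 and -0.29 with both agents, above all its TGFb arrays, and rose by 0.75 ± 0.11 (limma, adjusted p = 0.00045).

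CCNE2 rose from -0.70, -0.51 and -0.55 to -0.00, 0.04 and -0.02, by 0.59 ± 0.09 (limma, adjusted p = 0.00057), whereas its second probe, at 0.17, was not called. PCNA read 4.70, 4.64 and 4.41 with both agents and rose by 0.59 ± 0.09 (limma, adjusted p = 0.00066). CDC25A at 1.22, 1.37 and 1.30 rose by 0.55 ± 0.09 (limma, adjusted p = 0.00091). None of the 3 genes overlapped between TGFb alone and both agents. MAD2L1, a protein of the spindle checkpoint, was the spindle gene that rose, from 1.17, 1.39 and 1.28 to 2.14, 1.73 and 1.70, by 0.57 ± 0.13 (limma, adjusted p = 0.0062). CCND1 at 2.61, 2.69 and 2.59 rose by 0.31 ± 0.08 (limma, adjusted p = 0.0085) and again did not overlap the TGFb arrays.

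The other members that rose were CDC6 at 0.67, E2F2 at 0.65, MCM3 at 0.58, MCM6 at 0.50, MCM7 at 0.49, MCM4 at 0.48, CDK1 at 0.47, TYMS at 0.44, CDT1 at 0.43, RRM1 at 0.41, MCM2 at 0.37, CCNE1 at 0.31, CCNA2 (cyclin A2) at 0.29, TK1 at 0.28 and CDK4 at 0.26. MYBL2, the transcription factor that acts with FOXM1, fell by 0.30 and KIF20A, a kinesin of cytokinesis, by 0.28. TOP2A at 2.21, 2.08 and 1.91 and MKI67 at 1.49, 1.39 and 1.33 (treatment probe) did not pass, with differences of -0.13 and -0.14. CENPF was at -0.16 and was not called, and its second probe, at -0.59, was. The second MCM7 probe, at 0.38, was not called. Within slides 1, 2 and 3 the replication and nucleotide genes stood 0.59, 0.41 and 0.46 log2 units above the spindle genes. Scaling moved the split between the directions: 15 members were higher and 13 lower when the percentile was taken over bright probes only, 15 higher and 9 lower after quantile normalization, 18 higher and 0 lower with the array median and 1 higher and 0 lower with no scaling, when the median of all genes was -0.11 with bright probes and 0.23 with the array median. The shares of all genes called under these scalings are not reported here, so the counts were not set against them.

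**Figure D4:**
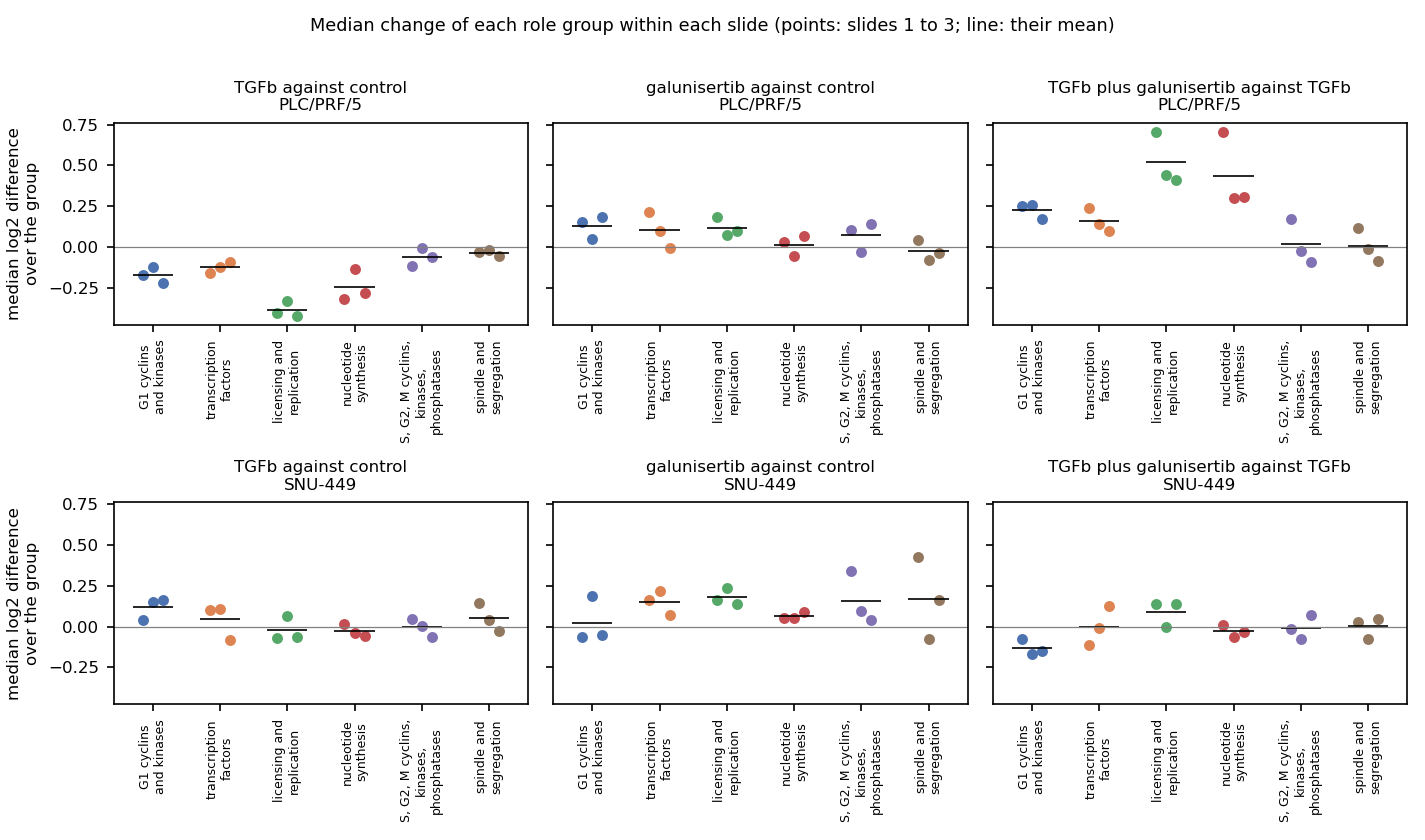
Median log2 difference over the members of each role (y axis) in 3 treatment comparisons of PLC/PRF/5 (upper row) and SNU-449 (lower row), with 1 point per slide and their mean as a line. In PLC/PRF/5 the licensing and replication points lie at -0.40, -0.33 and -0.42 with TGFb and at 0.71, 0.44 and 0.41 when galunisertib was added to TGFb, while the spindle points with TGFb lie at -0.03, -0.02 and -0.06.

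Against untreated controls, PLC/PRF/5 cells given both agents differed in few members, although 25.9% of all genes were called, 17.4% higher and 8.54% lower. Only 4 members rose, CCNE2 by 0.42, PCNA by 0.36, MAD2L1 by 0.45 and BUB1 by 0.25, and 4 fell, CDK2 by 0.40, MYBL2 by 0.29, MCM5 by 0.41 and KIF20A by 0.23. The member median of 0.06 equalled that of all genes, 0.06. MCM5, a helicase subunit, read 3.53, 3.33 and 3.27 in controls and 2.90, 3.09 and 2.92 with both, and MYBL2 read 1.33, 1.58 and 1.58 and then 1.17, 1.31 and 1.15, neither with overlap (limma, adjusted p = 0.038 and 0.037). CCNE2 and PCNA, whose combination levels are given above, lay above all their controls, and their second probes, at 0.23 and 0.10, were not called. With the slide as a block 5 members were called: BUB1, MAD2L1, MYBL2 and KIF20A were lost (limma, adjusted p = 0.0763, 0.0501, 0.0528 and 0.0538) and E2F2, at 0.47, was gained (adjusted p = 0.0449). The count also moved with other settings: 3 rose and 0 fell with the array median, 1 rose and 8 fell with the bright-probe percentile, 7 rose and 1 fell in the log2 table deposited by the authors, and 0 passed with no scaling or with the univariate test named in the methods of the study. It was 1 without control array 2, 2 without combination array 1 and 5 without control array 1, control array 3 or combination array 2.

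Galunisertib alone changed 1 member in PLC/PRF/5, against 5.42% of all genes. AURKA read 4.16, 4.33 and 4.27 in controls and 3.88, 3.27 and 3.59 with galunisertib, a fall of 0.68 ± 0.14 (limma, adjusted p = 0.024) without overlap. The AURKA spot lies within the outer 3 rows or columns of the array, and the call was lost with no scaling, with the array median and with the univariate test of the methods. On the same spot SNU-449 read 3.99, 4.18 and 3.76 in controls and 3.80, 2.29 and 3.53 with galunisertib, 1 array of which stood far below the rest. CCND1 read 2.89, 2.71 and 2.90, above all controls, at 0.29 (adjusted p = 0.054), PCNA 4.32, 4.42 and 4.53 at 0.20 (adjusted p = 0.22), and TOP2A 2.21, 1.86 and 2.20, with overlap. The treatment probe of MKI67 read 1.10, 1.64 and 1.11, at -0.42 (adjusted p = 0.10). The median was 0.07 over members, against 0.05 over all genes. An unadjusted p below 0.05 was reached by 6 of 48 members, against 3875 of 16684 genes tested. The count was 0 without control array 2, control array 3 or galunisertib array 3 and 3 without galunisertib array 2.

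**Figure D5:**
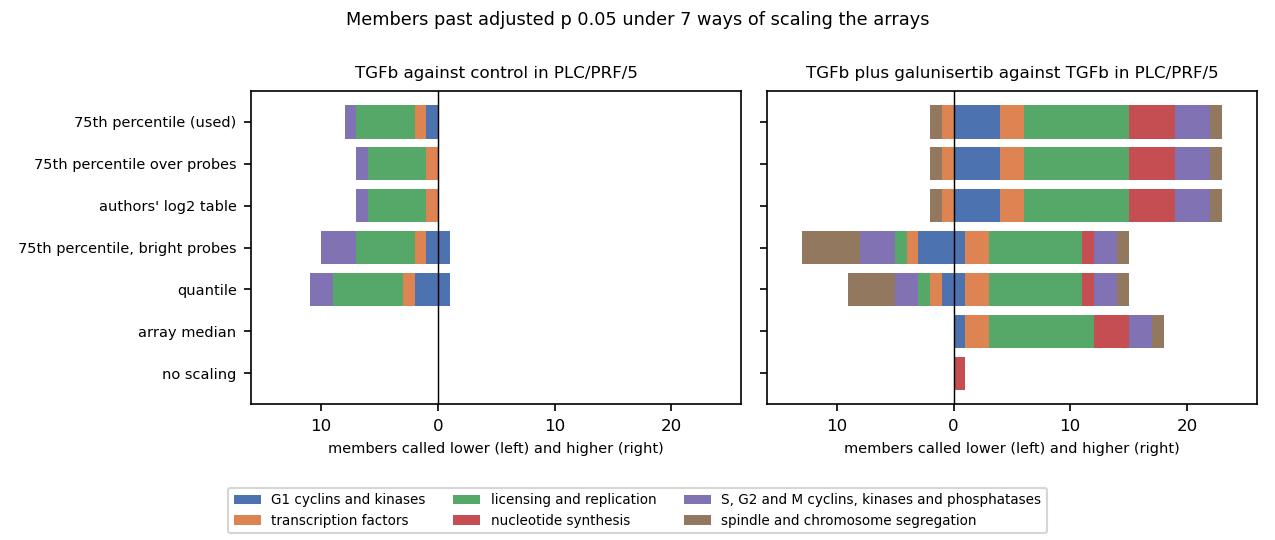
Number of members called lower (bars to the left of 0) and higher (to the right) at adjusted p 0.05 (limma) in 2 comparisons of PLC/PRF/5, stacked by role, under 7 ways of scaling the arrays. With TGFb the 75th percentile gives 8 lower and the array median 0, and with both agents against TGFb the green segments (licensing and replication) lie mostly on the right under every scaling except none.

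Promoter sequences of the members whose roles parted in PLC/PRF/5 are shown because replication and spindle genes are textbook examples of control through different promoter elements. They come from RefSeq (GRCh38.p14), and 39 of the 50 members had an entry. The 250 bases before each start were searched on both strands for the E2F motif, spelled TTGGCGC with the variant TTCGCGC, for the CCAAT box and for the cell cycle genes homology region (CHR), spelled TTTGAA with the variant TTCGAA. On the other strand, a CCAAT box can overlap the first E2F form. Below are the 120 bases up to the start of 5 genes that were called in the TGFb or combination comparisons for replication, nucleotide supply or S phase entry, and of 3 spindle genes, all chosen after their values were seen. Each reads 5′ to 3′ along the gene, with the motifs in capitals.
MCM3 (chr6:52284743-52284862, minus strand): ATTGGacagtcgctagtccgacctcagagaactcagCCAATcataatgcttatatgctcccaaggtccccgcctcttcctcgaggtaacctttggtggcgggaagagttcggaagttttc
MCM6 (chr2:135876444-135876563, minus strand): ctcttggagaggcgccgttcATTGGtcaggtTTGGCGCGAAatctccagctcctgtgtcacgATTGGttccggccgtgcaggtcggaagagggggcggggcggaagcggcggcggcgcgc
MCM7 (chr7:100101398-100101517, minus strand): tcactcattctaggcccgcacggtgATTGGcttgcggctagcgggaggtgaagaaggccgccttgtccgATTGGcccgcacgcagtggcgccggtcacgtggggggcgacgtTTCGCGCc
CDC25A (chr3:48188418-48188537, minus strand): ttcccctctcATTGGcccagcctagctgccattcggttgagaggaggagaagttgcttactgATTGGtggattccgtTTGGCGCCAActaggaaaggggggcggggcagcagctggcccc
RRM2 (chr2:10122619-10122738, plus strand): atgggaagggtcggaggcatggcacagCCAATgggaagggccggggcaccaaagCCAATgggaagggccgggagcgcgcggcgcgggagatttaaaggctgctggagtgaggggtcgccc
KIF11 (chr10:92593010-92593129, plus strand): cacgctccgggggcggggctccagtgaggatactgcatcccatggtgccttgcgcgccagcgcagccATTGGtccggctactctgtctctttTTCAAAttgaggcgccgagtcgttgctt
KIF20A (chr5:138178992-138179111, plus strand): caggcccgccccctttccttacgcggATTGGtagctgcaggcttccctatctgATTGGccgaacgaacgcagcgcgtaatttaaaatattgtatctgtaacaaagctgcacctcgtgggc
CDC20 (chr1:43358861-43358980, plus strand): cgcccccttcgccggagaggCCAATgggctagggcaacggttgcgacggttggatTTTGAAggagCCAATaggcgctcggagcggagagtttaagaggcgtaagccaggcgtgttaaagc

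The stretches of MCM6 and CDC25A each hold 2 overlapping E2F motifs between or beside CCAAT boxes, and that of MCM7 holds 1 E2F motif close to the start. MCM3 and RRM2, which also moved, show CCAAT boxes and no exact E2F motif in this stretch, and KIF11 and CDC20 show a CHR with CCAAT boxes. KIF20A shows CCAAT boxes alone. Over all 39 members, 8 (20.5%) held the E2F motif, against 4.37% of the 27305 promoters searched, 11 (28.2%) held a CHR, against 14.6%, 25 (64.1%) held a CCAAT box, against 33.0%, and 10 (25.6%) held a CHR and a CCAAT box together, against 5.24%. The CHR was found in 6 of 11 spindle promoters and in 1 of 8 of licensing and replication, and the E2F motif in 1 and 2 of these. Those 2, MCM6 and MCM7, are both printed above, so the printed genes overstate how often the motif occurs in this role. Of called genes not printed, CDT1, MCM2, CDC45, CDC6, PCNA, TK1, TYMS and RRM1 hold neither E2F spelling searched for. Nor do CCNE1, CCND3, CCNA2, CDK4, MYBL2 and BUB1. E2F2, CDK1 and MAD2L1, the spindle gene that rose, do hold the motif. Other spellings of an E2F site were not searched for, so a gene without a match may still hold such a site. A match describes the letters only.

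In SNU-449, few members were called with TGFb, and 0 of the 10 replication genes. Of 48 members, 3 rose and 0 fell (limma, adjusted p below 0.05), against 10.5% of the 16101 genes tested in this line, 5.73% higher and 4.75% lower, so the share of members that rose was close to that of all genes. All 3 were G1 cyclins: CCNE2, CCNE1 and CCND3. CCNE2 read 2.00, 2.39 and 2.07 in controls and 2.62, 2.66 and 2.62 with TGFb, a rise of 0.48 ± 0.11 (limma, adjusted p = 0.016) without overlap. CCNE1 read 4.47, 4.37 and 4.53 and then 4.84, 4.86 and 4.91, a rise of 0.42 ± 0.08 (limma, adjusted p = 0.0062). CCND3, cyclin D3, read 2.15, 2.03 and 1.83 and then 2.40, 2.40 and 2.34, a rise of 0.37 ± 0.10 (limma, adjusted p = 0.037). CCNE1 and CCND3 did not overlap their controls either.

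The proliferation markers were not called with TGFb in SNU-449. MKI67 read 2.09, 2.38 and 2.54, below all controls, at -0.67 ± 0.19 (limma, adjusted p = 0.052), whereas its other probes were at -0.19 and -0.02. PCNA at 6.08, 6.09 and 6.11, TOP2A at 3.88, 3.75 and 3.68 and CCND1 at 2.43, 2.46 and 2.37 overlapped their controls. The member median was 0.03, against 0.02 over all genes, and the replication minus spindle median was -0.17, -0.01 and -0.03 on slides 1, 2 and 3. Without control array 3, TGFb array 2 or TGFb array 3 the count was 1, with the array median it was 0, and quantile normalization gave 2 higher and 1 lower. With the slide as a block, for which these arrays were paired, CCND3 was no longer called and MKI67 was, which also made 2 higher and 1 lower.

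Galunisertib alone changed 0 members in SNU-449 by limma, where 7.43% of all genes were called. An unadjusted p below 0.05 was reached by 12 of 48 members, against 4029 of 16101 genes tested. The univariate test of the methods also gave 0. PCNA at 6.43, 6.15 and 6.07, TOP2A at 4.12, 3.97 and 4.33, MKI67 at 3.00, 2.34 and 2.87 and CCND1 at 2.53, 2.60 and 2.51 all overlapped their controls. Over members the median was 0.14, against 0.09 over all genes. A second CCNB1 probe was called, at 0.42, while the probe used, at 0.28, was not. The count was 1 without control array 2 or galunisertib array 3 and 2 without galunisertib array 2.

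With both agents against TGFb alone in SNU-449, 1 member was called, against 17.1% of all genes. CCNE1 read 4.53, 4.40 and 4.44 with both and 4.84, 4.86 and 4.91 with TGFb, and was lower by 0.41 ± 0.08 (limma, adjusted p = 0.0042) without overlap. CENPF read 6.24, 5.77 and 5.78 against 6.63, 6.43 and 6.55, at -0.61 (adjusted p = 0.059), and its second probe was called, at -1.37. The member median was -0.00, against 0.01 over all genes, and the replication minus spindle median was 0.04, 0.03 and 0.01 on slides 1, 2 and 3. The count was 2 without combination array 1, 3 with no scaling and 0 with the array median. Against untreated controls the combination changed 0 members by limma, where 0.478% of all genes were called. The univariate test of the methods also gave 0. An unadjusted p below 0.05 was reached by 2 of 48 members, against 2118 of 16101 genes tested. The member median of the combination against controls was 0.03, against 0.04 over all genes.

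The difference between the lines in their response to TGFb was tested directly. For 7 of 48 members the TGFb effect lay higher in SNU-449, and for 0 lower (limma interaction, adjusted p below 0.05), against 8.62% of all 17902 genes, 4.29% higher and 4.33% lower. These were CCNE2, CCNE1 and CCND3 of G1, the helicase subunits MCM7 and MCM3, and CDK1 and CDC25A. CCNE2 differed by 0.65 ± 0.13 (limma, adjusted p = 0.0035) with the probe used and by 0.44, not called, with a second probe. MCM7 read 7.14, 7.09 and 7.06 in SNU-449 controls and 7.21, 7.31 and 7.20 with TGFb, and 5.98, 6.15 and 6.13 and then 5.57, 5.81 and 5.69 in PLC/PRF/5. With this probe the TGFb arrays thus lay above the controls in SNU-449 and below them in PLC/PRF/5, and the difference was 0.54 ± 0.12 (limma, adjusted p = 0.0050). A second MCM7 probe gave a difference of 0.39, not called. With TGFb it was at -0.11 in SNU-449 and at -0.50 in PLC/PRF/5. CDK1 read 4.57, 4.53 and 4.62 with TGFb in SNU-449 and 2.77, 2.95 and 2.85 in PLC/PRF/5, and its effects differed by 0.40 ± 0.12 (limma, adjusted p = 0.045). This CDK1 spot lies within the outer 3 rows or columns, and the other CDK1 probe, which read the lowest value used on most PLC/PRF/5 arrays, gave -0.22.

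The median of this difference over members was 0.22, against 0.05 over all genes. It was above 0 for 40 of 48 members, against 10167 of 17902 genes. Within slides, the replication minus spindle median of the difference was 0.22, 0.31 and 0.38. The count was 0 with the array median, 0 with no scaling, and 3 or 4 when any of the 12 arrays was left out other than PLC/PRF/5 TGFb array 2 and SNU-449 control array 3. For galunisertib alone the effects of the lines differed in 0 members by limma, where 5.87% of all genes were called. An unadjusted p below 0.05 was reached by 7 of 48 members, against 3348 of 17902 genes. Limma on the 4 groups of this contrast alone also gave 0. The count was 1 without SNU-449 control array 2 or SNU-449 galunisertib array 2.

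Genes of the same pathway outside the list were counted in the same way. Of 69 other cell cycle genes tested, 55 were higher in untreated SNU-449 and 0 lower, against 34.6% and 33.9% of all genes. Among them were E2F7, an atypical E2F, at 2.76, GINS1, a helicase cofactor, at 2.50 and EXO1, an exonuclease of DNA repair, at 2.36. In PLC/PRF/5, 13 fell with TGFb and 1 rose, against 7.24% and 6.27% of all genes. MCM10, which helps start replication, was at -0.71, the condensin SMC4 at -0.65 and the origin protein ORC1 at -0.56, whereas WEE1, the kinase that restrains CDK1, was at 0.39. With both agents against TGFb, 39 rose and 2 fell, against 25.8% and 13.3% of all genes. The clamp loader subunit RFC3 led at 0.91, and WEE1 was at -0.64. Against untreated controls the combination raised 7 and lowered 2, lower shares than the 17.4% and 8.54% of all genes. Galunisertib alone gave 0 calls among them in PLC/PRF/5 by limma, against 5.42% of all genes. An unadjusted p below 0.05 was reached by 8 of the 69, against 3875 of 16684 genes tested. In SNU-449, TGFb gave 0 calls by limma, against 10.5% of all genes. There 3 of the 69 reached an unadjusted p below 0.05, against 3863 of 16101 genes tested. Galunisertib raised 2 (BRCA1 at 0.42 and UBE2T at 0.34, both of DNA repair), where 7.43% of all genes were called. Both agents against TGFb raised 3, where 17.1% of all genes were called. They were CDCA7 at 0.43, GINS1 at 0.33 and POLA1, a DNA polymerase subunit, at 0.28. These shares of the 69 were below those of all genes. Among members, by comparison, TGFb raised 3, galunisertib changed 0 and both agents against TGFb lowered 1 in SNU-449. The TGFb effect differed between the lines in 1 of the 69, EXO1, at 0.53, against 7 of 48 members and 8.62% of all genes. The galunisertib effect differed in 1, POLA1, at 0.40, against 5.87% of all genes.

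Brakes of the cell cycle were called in both directions. Of 22 tested in untreated cells, 8 were higher and 6 lower in SNU-449, shares close to the 34.6% and 33.9% of all genes. The CDK4 and CDK6 inhibitor CDKN2C was 2.10 log2 units higher, while the antiproliferative gene BTG1 was 2.98 and the CDK4 and CDK6 inhibitor CDKN2A 1.77 log2 units lower. CDKN2B, a further inhibitor of CDK4 and CDK6, was not well above background in the SNU-449 controls, and its PLC/PRF/5 intensity exceeded theirs at least 1.76-fold. In PLC/PRF/5, 6 of 22 brakes were called with TGFb, against 13.5% of all genes. TGFb raised the CDK inhibitor CDKN1C by 0.92 and GADD45B by 0.74, and GADD45A fell by 0.57, the GADD45 genes being stress-induced growth arrest genes. Adding galunisertib to TGFb raised 9 of 22 brakes and lowered 5, where 25.8% of all genes were higher and 13.3% lower, with GADD45A at 1.02, CDKN1C at -1.07 and GADD45B at -0.74. In SNU-449, TGFb raised 2 of 20 brakes, GADD45B by 1.08 and BTG1 by 0.45, and GADD45A fell by 0.74, where 10.5% of all genes were called. Galunisertib alone, with 7.43% of all genes called, raised CDKN1C by 0.90, CDKN2D by 0.49 and CDKN2C by 0.47 there, and GADD45B fell by 1.09. In PLC/PRF/5 galunisertib alone raised 3 of 22 brakes, by up to 1.03, and lowered 1, where 5.42% of all genes were called. The galunisertib effect differed between the lines in 5 of 22, higher in SNU-449 for 3 and lower for 2, against 5.87% of all genes.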

How the data were processed

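RNA from 24 cultures was hybridised to 1-colour Agilent SurePrint G3 human arrays, with 62976 spots and 58201 probes apart from controls. The authors deposited the scanner output of each array, made with Feature Extraction 10.7.3.1, whose processed signal is a background-corrected intensity, and a table of normalized log2 values, whose columns matched the processed signals after scaling to the 75th percentile over probes. The mean spot signal was not in the deposited intensity files, so normexp (offset 50) used the median signal. All value columns belonged to a sample. Depth has no meaning for arrays, and 3 per group limit the precision.

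Spots flagged as outliers were left out (111 to 216 per array), spots of a probe were averaged, and each array was divided by its 75th percentile. Values below 5.70% of that percentile were set to it (log2 -4.13), the median over arrays of the lowest signal among spots well above background. Probes were named through their accession, 31104 by RefSeq and 10719 by LNCipedia, and 16378 were unnamed. The brightest probe stood for a gene within a fit, so MKI67 had a different probe in PLC/PRF/5, and calls of other probes came from a fit over all probes. A gene entered a test where all arrays of at least 1 group detected its probe well above background.

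Groups came from the labels. Differences were tested with limma 3.58.1 (R 4.3.3), using 12 arrays for a comparison within a line and 24 between lines, with Benjamini-Hochberg adjustment over all genes tested and calls at adjusted p below 0.05. The univariate t-test with a random variance model that the study used is related to limma. The methods' t-test, the scaling, the background correction, the filter, the floor, the probe rule and the authors' table were alternatives, and 2 more, the percentile over probes and the removal of spots in the outer 3 rows and columns, were added after seeing the data. Figures were drawn with matplotlib 3.10.9, and the fits were tested on simulated data.

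MKI67, PCNA, TOP2A and CCND1 were always given by array, with the called member of the largest difference in each role, and at most 25 other called members were named per comparison. Of other lists, at most 3 genes per direction were named. Some genes of these lists are not reported here. Members and lists were chosen with earlier results of these data known. Same-numbered arrays share a slide. Their deviations from the group means correlated above 0.1 in every pair for TGFb against control in PLC/PRF/5 (0.17 to 0.31) and in SNU-449 (0.13 to 0.22) and for both agents against TGFb in SNU-449 (0.10 to 0.27), and not in the other comparisons.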

Additional observations from a re-analysis of the deposited data

Results flagged for a closer look

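For 7 members the change with TGFb differed between the lines by a test of the difference itself (limma interaction over all 24 arrays, Benjamini-Hochberg over 17902 genes, change in SNU-449 minus change in PLC/PRF/5 on the log2 scale, ± SE). The differences were 0.65 ± 0.13 for CCNE2 (adjusted p = 0.0035), 0.54 ± 0.12 for MCM7 (0.0050), 0.50 ± 0.10 for CCNE1 (0.0029), 0.42 ± 0.12 for MCM3 (0.036), 0.42 ± 0.13 for CCND3 (0.044), 0.40 ± 0.12 for CDK1 (0.045) and 0.39 ± 0.12 for CDC25A (0.045). For CCNE2, CCNE1 and CCND3 the change was called in SNU-449 and not in PLC/PRF/5, for MCM7, MCM3 and CDC25A it was called in PLC/PRF/5 and not in SNU-449, and for CDK1 it was called in neither line alone. A second MCM7 probe was called neither within a line nor for the difference. No group held more than 3 arrays, so single arrays were not examined for standing apart by a rule.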

How the results depend on the processing

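Counts are of members called out of 48, and the report names each array whose omission moved a count by over 1.5 times. For the treatment comparisons, the counts under other settings were not set against the share of all genes called under the same setting. The count for untreated cells, 43, stayed between 38 and 44 under all settings. For TGFb in PLC/PRF/5, 8 became 0 with the array median, 0 unscaled and 4 with the methods' t-test, and ranged from 4 to 8 when 1 array was left out. For galunisertib in PLC/PRF/5, 1 became 0 with the array median, 0 unscaled, 0 with the methods' t-test, 0 without spots in the outer 3 rows and columns, and 2 with only probes above background on every array or with the mean of all probes, and ranged from 0 to 3 with 1 array left out. For both agents against TGFb in PLC/PRF/5, 25 became 1 unscaled and 16 with the methods' t-test. For both agents against control in PLC/PRF/5, 8 became 3 with the array median, 0 unscaled, 4 with no filter on dim probes and 0 with the methods' t-test, and ranged from 1 to 8 with 1 array left out.

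For TGFb in SNU-449, 3 became 0 with the array median, 1 unscaled, 5 with normexp and 1 with the methods' t-test, and ranged from 1 to 3 with 1 array left out. For galunisertib in SNU-449, 0 became 3 with normexp and 1 with the mean of all probes, and ranged from 0 to 2. For both agents against TGFb in SNU-449, 1 became 0 with the array median, 3 unscaled, 3 with normexp, 3 with the methods' t-test, and 2 with only probes above background on every array, with the mean of all probes or without outer spots, and ranged from 1 to 2. For both agents against control in SNU-449, 0 became 1 with normexp. For the difference of the TGFb effect, 7 became 0 with the array median, 0 unscaled, 2 with quantile normalization, 3 in the authors' table, and 4 with the percentile over bright probes, normexp, only probes above background on every array, a halved floor, or the percentile over probes, and ranged from 3 to 7. For the difference of the galunisertib effect, 0 became 1 with the percentile over bright probes or quantile normalization, and ranged from 0 to 1. Of single members, CDK1 turned to -0.22 in the difference of the TGFb effect without outer spots, where a dim second probe stood for it. The other causes were not tested. The percentile over probes and the removal of outer spots were chosen after seeing the data.

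With the slide as replicate block, in the comparisons where arrays of a slide deviated together in every pair, 8 members were called for TGFb in PLC/PRF/5, 3 for TGFb in SNU-449 (CCND3 lost and MKI67 gained) and 1 for both agents against TGFb in SNU-449. In the others the replicate block gave 43, 1, 25, 5, 0, 0, 7 and 0 for untreated cells, galunisertib in PLC/PRF/5, both agents against TGFb and against control in PLC/PRF/5, galunisertib and both against control in SNU-449, and the differences of the TGFb and galunisertib effects, and calls changed in both agents against control in PLC/PRF/5 alone (BUB1, MAD2L1, MYBL2 and KIF20A lost and E2F2 gained).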
